A study of Mus musculus with 37 samples.

Results

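The peroxisomal beta-oxidation enzymes described here are Acox2, Ehhadh, Hsd17b4, Acaa1a, Acaa1b, Scp2, Decr2, Eci2 and Pecr. They were chosen by symbol and by no rule on measured values, but with earlier results of these data known. These 9 genes of 21450 were read by 16 of the 30146 probes in the table, and all 16 probes were among the 18570 that passed the filter on low counts. In mouse liver, 7 of the 9 genes were raised at 5 mg/kg/day HFPO-DA in each sex, where 4.21% of all probes tested rose in male and 2.26% in female mice. A gene is counted as called if any of its probes was called. By that count 2061 of all 13004 genes tested were called in male and 682 in female mice at this dose, in either direction. Of the 9 genes, 6 were raised in both sexes, and Acox2 was called in male and Scp2 in female mice. The calls on Acox2 depended on the fit: with each sex fitted apart it was called in female and not in male mice. Ehhadh, the bifunctional enzyme of the straight-chain pathway, rose most, 45.6-fold in male and 32.6-fold in female mice. Acaa1b, one of a pair of near-identical thiolase genes, rose 10.4-fold and 11.2-fold. Pecr, a reductase, fell in male mice to 0.282 of the control level, and its difference between the sexes did not pass the test. Scp2, a thiolase and sterol carrier, rose in female mice, and the effect of dose on it was lower in male mice by the test of the difference itself. At 0.1 mg/kg/day no gene of the set passed the test in either sex with edgeR. Calls throughout are at an adjusted p under 0.10, with edgeR's quasi-likelihood test adjusted over all probes, and errors of log2 fold changes are standard errors.

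HFPO-DA is hexafluoropropylene oxide dimer acid, a short-chain perfluoroalkyl ether acid, given here as its ammonium salt in deionized water by oral gavage. The mice were wild-type parental (F0) animals of the outbred stock Crl:CD1(ICR), which the labels give as CD1. Control mice received the vehicle alone, and the dosed groups received HFPO-DA once a day at 0.1 mg/kg, 0.5 mg/kg or 5 mg/kg of body weight. Male mice were about 6 weeks old at the first dose and received 84 to 85 doses, from 70 days before mating to the end of a mating period of 14 days. Female mice were about 11 weeks old at the first dose and received 53 to 65 doses, from 14 days before mating until lactation day 20 or 21, so all female groups had borne and nursed litters. Sex is therefore tied to age, number of doses and lactation, and these cannot be told apart. Groups held 5, 5, 5 and 4 male mice and 5, 5, 4 and 4 female mice in order of dose.

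RNA was read from scraped sections of fixed liver by TempO-Seq, in which a pair of detector oligos is joined on its target transcript, amplified and sequenced. Total counts ranged from 2101495 to 10548222 in male and from 7952605 to 13878254 in female mice, and 4 male mice, all dosed, lay under 5000000. Ddx3y, a gene of the Y chromosome, had 31 to 623 counts in every male library and 0 to 2 in the female ones. Marker genes of hepatocytes (Alb, Ttr, Hnf4a, Apob and Tat) were detected in every group, with a summed level of 9013 to 15553 CPM (counts scaled to a library of 1000000) in control male mice and 10212 to 11747 CPM at 5 mg/kg/day. In female mice these sums were 13795 to 19869 CPM and 12699 to 15068 CPM. Of these 5 markers 2 fell in male mice at 5 mg/kg/day, Tat by 2.86 on the log2 scale and Apob by 0.70 on probe 68264, while the leading Apob probe changed by -0.23 (adjusted p = 0.409). Ttr fell by 0.69 in female mice. Of the endothelial markers Kdr fell by 0.95 in male mice at that dose. No marker of Kupffer cells, stellate cells, cholangiocytes, lymphocytes or adipocytes passed the test against controls at any dose, while the lymphocyte marker Ptprc rose by 1.90 between 0.5 and 5 mg/kg/day in male mice. In a section of whole liver, fewer cells of a type and less RNA per cell cannot be told apart, and the part of cell composition in the results was not tested.

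Peroxisomes shorten fatty acids that mitochondria handle poorly: very long chains, branched chains, dicarboxylic acids and the side chain of bile acid precursors. Each turn of the cycle uses an acyl-CoA oxidase, a bifunctional enzyme that hydrates and dehydrogenates, and a thiolase that cleaves off the shortened chain. Auxiliary enzymes move or remove double bonds so that unsaturated chains can enter the cycle. In rodent liver, genes of this pathway are classical targets of PPARα, a nuclear receptor that binds DNA with RXR at a direct repeat with a spacer of 1 base (DR1).

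The thiolase pair is shown first, because the distance between Acaa1a and Acaa1b decides how well their probes can be kept apart. Both genes lie on chromosome 9 of GRCm38 in the GENCODE M21 annotation, Acaa1b at 119148023 to 119157093 on the minus strand and Acaa1a at 119339676 to 119350299 on the plus strand, 182582 bases apart. The coding sequences of the transcripts Acaa1a-201 and Acaa1b-201 are both 1275 bases long and differ at 44 positions, an identity of 96.5%. Of the 1226 windows of 50 bases along them, 38.1% are the same in both genes, and the longest run without a difference spans coding bases 748 to 1074, 327 bases. The stretch of 60 bases with the most differences, 11, lies at coding bases 259 to 318 and is printed with the differing bases in capitals.
Acaa1a: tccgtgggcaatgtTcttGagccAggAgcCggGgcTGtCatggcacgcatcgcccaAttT
Acaa1b: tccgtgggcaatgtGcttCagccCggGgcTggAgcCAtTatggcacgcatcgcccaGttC
The sequences of the probes were not used here, so how far the probe of one gene also reads the other is uncertain, and the values of this pair carry that limit.

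The promoters of the 3 genes with the largest rises are shown next, as the 120 bases before the RefSeq start in GRCm38.p6, with CCAAT boxes (CCAAT or ATTGG) and GC boxes (GGGCGG or CCGCCC) in capitals. Ehhadh is at chr16:21787835-21787954 on the minus strand, Acaa1b at chr9:119157094-119157213 on the minus strand, and Acaa1a at chr9:119341174-119341293 on the plus strand.
Ehhadh: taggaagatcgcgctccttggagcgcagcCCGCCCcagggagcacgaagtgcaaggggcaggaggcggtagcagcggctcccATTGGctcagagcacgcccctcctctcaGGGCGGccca
Acaa1b: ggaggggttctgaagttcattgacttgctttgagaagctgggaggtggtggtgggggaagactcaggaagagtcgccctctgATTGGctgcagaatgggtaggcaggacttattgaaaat
Acaa1a: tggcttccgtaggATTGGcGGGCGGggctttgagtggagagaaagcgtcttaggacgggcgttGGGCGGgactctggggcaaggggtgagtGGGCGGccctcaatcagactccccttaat
Promoter windows of 250 bases before and 50 after the start were used for 8 of the 9 genes, with 2 for Acox2. Hsd17b4 was left out of this search. A CCAAT box was found in 6 of the 9 windows and in 37.4% of 32851 windows in all, and a GC box in 6 of 9 and in 35.7%. The DR1 consensus, AGGTCA repeated after 1 base of any kind and searched on both strands, was in none of the 9 windows and in 0.0396% of all windows. A single AGGTCA was in 1 of the 9, in Scp2 at 109 bases before the start, and in 16.3% of all windows. These matches describe the windows only, and sites farther away were not searched.

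The first step of the cycle was read here by Acox2, the oxidase for branched-chain and bile acid intermediates. The leading probe of a gene is the one with the highest total count, and for Acox2 this was probe 75827. In control male mice it stood at 50.8, 28.4, 52.6, 26.8 and 14.2 CPM, and at 5 mg/kg/day at 58.2, 55.8, 19.5 and 44.3 CPM. The groups overlapped, with a log2 fold change of 0.37 ± 0.29 (SE) and an adjusted p of 0.503. In female mice the controls held 26 to 39.2 CPM and the 5 mg/kg/day mice 39.1 to 76.6 CPM, with a log2 fold change of 0.72 and an adjusted p of 0.242, and the lowest dosed mouse lay just under the highest control. The second probe, 68388, read 3.27 to 24.7 CPM in control male mice and 12 to 35.7 CPM at 5 mg/kg/day, and it rose by 0.99 on the log2 scale (adjusted p = 0.0803). That call was lost in 10 of the fits that left out 1 mouse, among them those without control male replicate 5 (0.74, adjusted p = 0.185) and without 5 mg/kg male replicate 2 (0.77, adjusted p = 0.231). In female mice the same probe read 8.4 to 12.9 CPM in controls and 17.9 to 29.6 CPM at 5 mg/kg/day, with no overlap, yet its log2 fold change of 1.01 had an adjusted p of 0.136. It passed in female mice with DESeq2 (adjusted p = 0.055), with each sex fitted apart (0.017), without the male mice under 5000000 counts (0.096) and without control male replicate 5 (0.069). With each sex fitted apart the leading Acox2 probe also passed in female mice (adjusted p = 0.0274), and probe 68388 did not pass in male mice (adjusted p = 0.222). The male call on probe 68388 was also lost with no filter on low counts (adjusted p = 0.113) and with thinned counts (adjusted p = 0.1). No Acox2 probe passed the test of a difference between the sexes.

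Ehhadh carries the middle steps for straight chains, and it had the smallest p of all 18570 probes at both 0.5 and 5 mg/kg/day in both sexes. Control male mice stood at 432, 199, 227, 310 and 247 CPM. At 0.5 mg/kg/day the male mice stood at 1764, 2254, 2227, 5297 and 1521 CPM, and at 5 mg/kg/day at 11760, 15320, 10919 and 13666 CPM. No mouse of either dose overlapped the controls or the other dose. Control female mice stood at 495, 446, 342, 462 and 345 CPM, the 0.5 mg/kg/day mice at 1550, 2834, 1784 and 1445 CPM, and the 5 mg/kg/day mice at 12693, 11960, 17070 and 12736 CPM. These groups did not overlap either. The log2 fold changes at 0.5 mg/kg/day were 3.21 ± 0.27 in male mice (adjusted p = 6.44e-11) and 2.19 ± 0.26 in female mice (adjusted p = 4.2e-06). At 5 mg/kg/day they were 5.51 ± 0.30 in male mice (adjusted p = 2.45e-17) and 5.03 ± 0.29 in female mice (adjusted p = 3.29e-16). The step from 0.5 to 5 mg/kg/day was 2.31 in male and 2.84 in female mice, and both steps passed the test. As a share of all counts in the liver libraries, Ehhadh went from 0.0167% to 0.0384% in control male mice to 1.20% to 1.53% at 5 mg/kg/day. In female mice it went from 0.0350% to 0.0491% in controls to 1.31% to 1.80% at 5 mg/kg/day.

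Hsd17b4 encodes the other bifunctional enzyme, which serves branched chains and bile acid intermediates as well as very long chains. It stood at 839, 710, 821, 916 and 664 CPM in control male mice and at 1160, 1072, 1139, 1280 and 1043 CPM at 0.5 mg/kg/day. At 5 mg/kg/day the male mice stood at 1238, 1801, 954 and 1543 CPM, all above the controls. The log2 fold change was 0.53 at 0.5 mg/kg/day (adjusted p = 0.0903) and 0.81 ± 0.15 at 5 mg/kg/day (adjusted p = 1.43e-04). The call at 0.5 mg/kg/day was lost in 15 fits that left out 1 mouse, with adjusted p up to 0.216. Control female mice stood at 741, 562, 638, 549 and 563 CPM, and the 5 mg/kg/day mice at 1339, 1257, 1358 and 1234 CPM, again with no overlap. Hsd17b4 rose there by 1.09 ± 0.15 on the log2 scale (adjusted p = 1.27e-06), a 2.12-fold change against 1.75-fold in male mice.

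**Figure D1:**
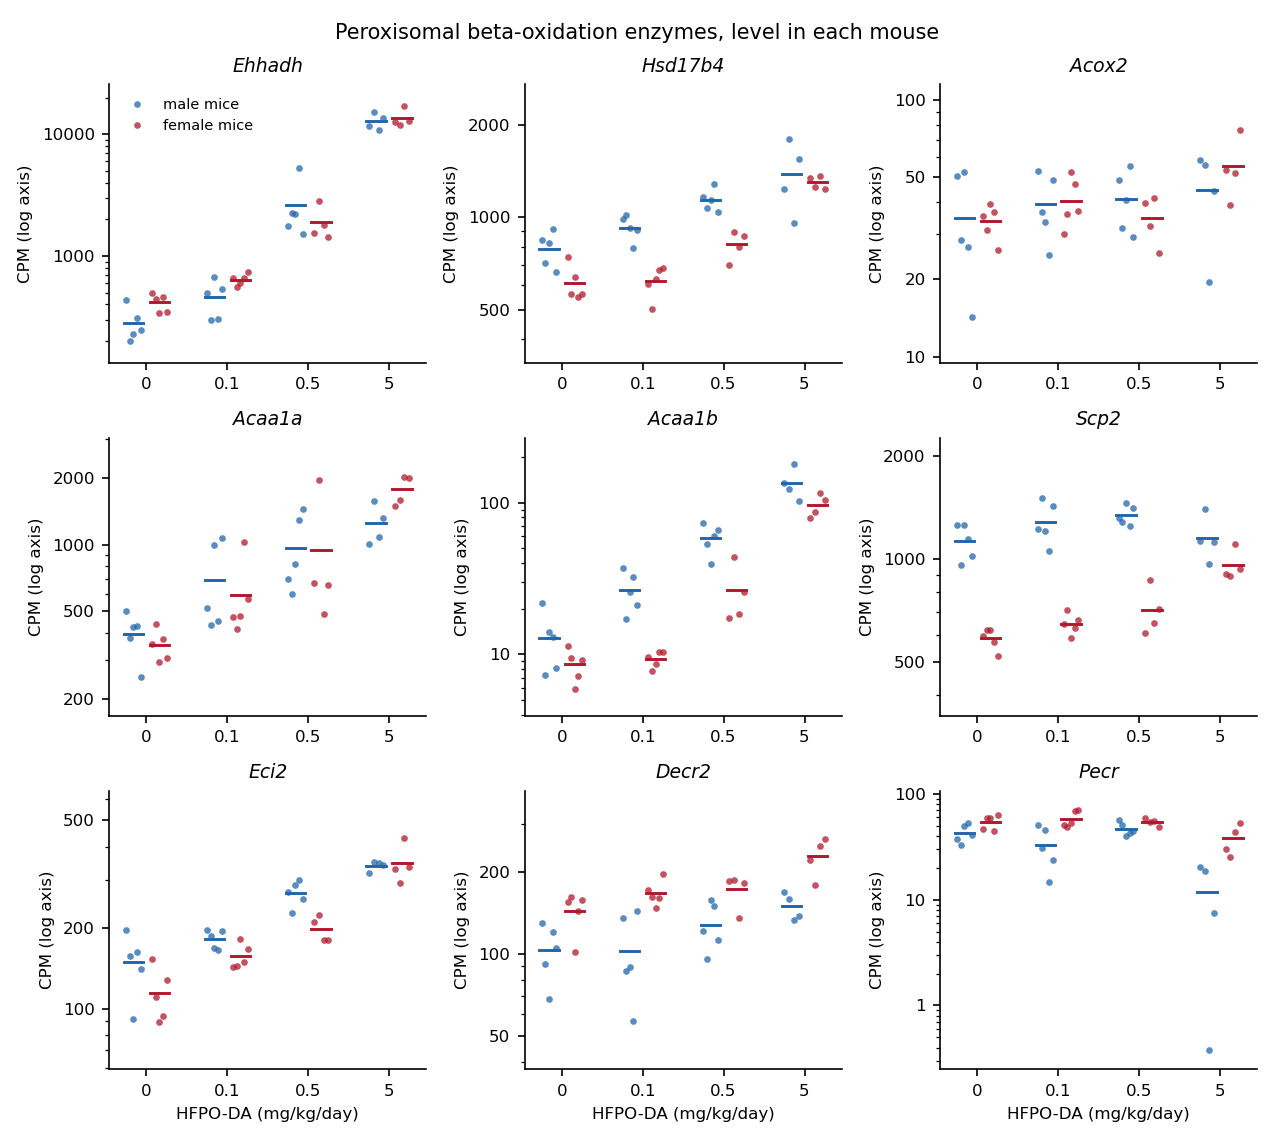
Level of the leading probe of each of the 9 genes (y, CPM on a log axis) by dose of HFPO-DA (x, mg/kg/day). Each point is 1 mouse, blue for male and red for female, and each bar is the group mean. Ehhadh lies between 10919 and 17070 CPM in every mouse at 5 mg/kg/day, and Pecr at 0.375 to 20.5 CPM in the male mice of that dose.

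The ratio of Ehhadh to Hsd17b4 within a mouse sets the enzymes of the same step against each other and does not depend on how the library was scaled. Ratios are given as log2 of CPM with a prior count of 2, tested by exact two-sided permutation and adjusted over 24 tests (4 pairs, 3 doses, 2 sexes). The log2 ratio at 5 mg/kg/day was higher than in controls by 4.77 in male mice and by 3.93 in female mice, with no overlap in either sex. For both the exact permutation p = 0.0159, the smallest that 4 against 5 mice allows, and the adjusted p was 0.0318. At 0.1 mg/kg/day the female mice had a mean log2 ratio of 0.05 ± 0.10 (SD, n = 5) against -0.55 ± 0.27 (SD, n = 5) in controls. All 5 lay above all controls, p = 0.00794 by the exact permutation test, the smallest that 5 against 5 allows, with an adjusted p of 0.0318. This difference of 0.61 passed in every alternative tried for it. In male mice at 0.1 mg/kg/day the difference was 0.45 and the groups overlapped (exact permutation p = 0.127, adjusted p = 0.191).

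The levels of Ehhadh at 0.1 mg/kg/day were 655, 558, 595, 658 and 735 CPM in female mice, all above the highest control of 495 CPM. It was the only one of the 16 probes whose female groups did not overlap at this dose, while 0.781% of all 18570 probes were higher with no overlap. With edgeR its log2 fold change was 0.62 ± 0.25, at an unadjusted p of 0.016 and an adjusted p of 1. In male mice Ehhadh stood at 493, 297, 668, 304 and 540 CPM at 0.1 mg/kg/day, which overlapped the controls, with a log2 fold change of 0.70 ± 0.25 (adjusted p = 0.624). At this dose 0% of all probes were called in either sex. Of the 16 probes, 3 had an unadjusted p under 0.05 in each sex, against 7.14% of all probes in male and 2.38% in female mice. In male mice these were the leading probes of Ehhadh, Acaa1a and Acaa1b, and in female mice those of Ehhadh, Acaa1a and Eci2. With DESeq2 1 of the 9 genes passed at 0.1 mg/kg/day in male mice, Acaa1b (log2 fold change 1.08, adjusted p = 0.0996), among 19 called probes of 28330 tested, and none in female mice.

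Acaa1b and Acaa1a encode the straight-chain 3-ketoacyl-CoA thiolases of the last step. Acaa1b stood at 22, 7.26, 14, 13 and 8.1 CPM in control male mice, at 73.5, 53.2, 39.7, 60.1 and 66.5 CPM at 0.5 mg/kg/day and at 134, 122, 179 and 103 CPM at 5 mg/kg/day. Each of these groups lay wholly above the one before it. Control female mice stood at 11.3, 9.52, 5.90, 7.18 and 9.24 CPM, the 0.5 mg/kg/day mice at 17.4, 44.1, 18.3 and 25.9 CPM and the 5 mg/kg/day mice at 79.6, 87.3, 115 and 104 CPM. The log2 fold change at 0.5 mg/kg/day was 2.18 ± 0.27 in male mice (adjusted p = 1.47e-06) and 1.61 ± 0.28 in female mice (adjusted p = 0.00199). At 5 mg/kg/day it was 3.38 ± 0.29 in male mice (adjusted p = 3.04e-11) and 3.48 ± 0.29 in female mice (adjusted p = 2.08e-11). The step from 0.5 to 5 mg/kg/day also passed, 1.20 in male mice (adjusted p = 0.00516) and 1.87 in female mice (adjusted p = 1.08e-04). Without the 4 male mice under 5000000 counts the male step was 0.88 and no longer passed (adjusted p = 0.173). That fit leaves out 2 of the 4 male mice at 5 mg/kg/day and 1 of the 5 at 0.5 mg/kg/day.

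Acaa1a, read on its leading probe 29428, stood at 500, 376, 425, 428 and 252 CPM in control male mice. It stood at 700, 598, 816, 1289 and 1443 CPM at 0.5 mg/kg/day and at 1010, 1583, 1080 and 1319 CPM at 5 mg/kg/day, where the upper groups overlapped each other but not the controls. In female mice the controls stood at 356, 436, 295, 372 and 306 CPM and the 0.5 mg/kg/day mice at 671, 1969, 485 and 653 CPM. The 5 mg/kg/day female mice stood at 1502, 1598, 2031 and 1999 CPM, and 1 mouse at 0.5 mg/kg/day thus reached their range. The log2 fold change at 5 mg/kg/day was 1.66 ± 0.31 in male mice (adjusted p = 2.43e-04) and 2.34 ± 0.32 in female mice (adjusted p = 1.27e-06). At 0.5 mg/kg/day it was 1.29 in male mice (adjusted p = 0.0294), a call lost without replicate 4 (1.17, adjusted p = 0.12) or replicate 5 (1.11, adjusted p = 0.107) of that group. In female mice it was 1.42 (adjusted p = 0.041), and without replicate 2 of that group it fell to 0.77 with an adjusted p of 1. That call was also lost without control female replicate 3, 4 or 5 (adjusted p = 0.142, 0.107 and 0.165). The other 2 probes of Acaa1a, 79478 and 80776, also rose at 5 mg/kg/day in both sexes, by 0.65 and 1.39 in male mice and by 1.25 and 1.57 in female mice. The male calls of both were lost without 5 mg/kg replicate 2 (0.44, adjusted p = 0.204, and 1.11, adjusted p = 0.132), and that of 79478 also without control male replicate 3 (0.51, adjusted p = 0.12).

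The thiolase ratio was higher at 5 mg/kg/day in both sexes, since Acaa1b rose by more than Acaa1a. The log2 ratio of Acaa1b to Acaa1a was -5.00 ± 0.42 (SD, n = 5) in control male mice and -3.22 ± 0.55 (SD, n = 4) at 5 mg/kg/day. The difference of 1.78 came with no overlap between the groups (exact permutation p = 0.0159, adjusted p = 0.0318). In female mice it went from -5.34 ± 0.33 (SD, n = 5) to -4.20 ± 0.05 (SD, n = 4), a difference of 1.13 at the same p. At 0.5 mg/kg/day the male ratio was higher by 1.01 (adjusted p = 0.0318), and at 0.1 mg/kg/day the female ratio was lower than in controls by 0.54 (adjusted p = 0.0439). Both of the latter lost the call when counts were thinned to the smallest total (0.73, adjusted p = 0.127, and -0.48, adjusted p = 0.213). The permutation test was not passed by the male ratio at 0.1 mg/kg/day (0.37, adjusted p = 0.414) or the female ratio at 0.5 mg/kg/day (0.32, adjusted p = 0.266).

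**Figure D2:**
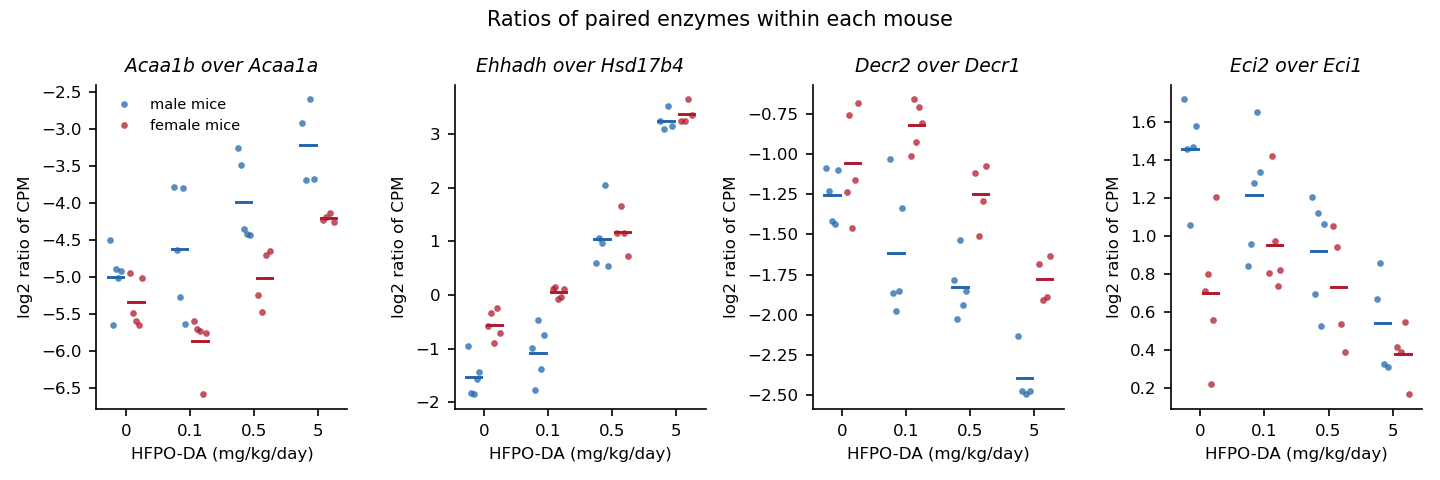
Log2 ratio of CPM (y) between paired enzymes in each mouse by dose of HFPO-DA (x, mg/kg/day), with blue points for male mice, red points for female mice and bars for group means. The ratio of Ehhadh to Hsd17b4 shifts upward by 4.77 in male and 3.93 in female mice at 5 mg/kg/day, whereas Decr2 to Decr1 shifts downward.

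Scp2 encodes a peroxisomal thiolase for branched-chain and bile acid intermediates joined to a sterol carrier domain, and a shorter transcript of the gene encodes the carrier alone. In GENCODE M21 the gene spans 108043839 to 108144998 on the minus strand of chromosome 4. The coding transcript Scp2-201 starts at base 108118532, and the shorter Scp2-202 starts within the gene at base 108071419. Of the 4 Scp2 probes it was not determined which transcript each reads. In control mice all 4 probes were higher in male than in female liver, with no overlap (1.54% of all probes), but by unequal amounts. Probe 78173 stood at 1634, 1226, 1742, 1536 and 1123 CPM in control male mice against 161, 117, 193, 144 and 160 CPM in control female mice, a log2 difference of 3.23 ± 0.18 (adjusted p = 4.57e-17). Probe 72800 differed by 2.98 ± 0.19 (adjusted p = 3.96e-15), with 328 to 652 CPM against 53.4 to 101 CPM. Probes 63300 and 29592 differed by 0.95 and 0.59 (adjusted p = 1.55e-06 and 0.00643). Scp2 was the 1 gene of the 9 called between control male and control female mice, by 4 of the 16 probes. Of all probes 2.6% were called, and of 13004 genes tested 412.

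All 4 Scp2 probes rose in female mice at 5 mg/kg/day. Probe 78173 stood there at 353, 352, 444 and 332 CPM, above every control, a log2 fold change of 1.26 ± 0.18 (adjusted p = 3.04e-06). Probe 72800 rose by 1.28 (adjusted p = 8.33e-06), probe 63300 by 0.71 (adjusted p = 4.41e-04) and probe 29592 by 0.48 (adjusted p = 0.0371). The call of probe 29592 was lost without 5 mg/kg female replicate 3 or 4 (0.44 and 0.45, adjusted p = 0.166 and 0.13) or control female replicate 4 (0.46, adjusted p = 0.113). In male mice probe 78173 stood at 1043, 1411, 697 and 1199 CPM at 5 mg/kg/day, which overlapped the controls. Its log2 fold change was -0.42 ± 0.18 (adjusted p = 0.144), and those of probes 29592, 72800 and 63300 were -0.33, -0.30 and 0.03. On probe 29592 the male mice stood at 414, 406, 362 and 350 CPM, all below the controls at 448 to 520 CPM, at an adjusted p of 0.137. The call of a fall in probe 78173 was gained without 5 mg/kg male replicate 2 (-0.60, adjusted p = 0.0459) and without control male replicate 2 or 5 (adjusted p = 0.091 and 0.0959). Probe 29592 gained the call of a fall (log2 fold change -0.36 each time) without male replicate 2 or 3 at 0.5 mg/kg (adjusted p = 0.0753 and 0.0919) or replicate 4 or 5 at 0.1 mg/kg (adjusted p = 0.0969 and 0.0975).

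The effect of 5 mg/kg/day on Scp2 was lower in male than in female mice by 1.67 ± 0.25 (log2) on probe 78173, with an adjusted p of 1.34e-04 for the interaction of sex and dose. On probe 72800 it was lower by 1.58 ± 0.27 (adjusted p = 7.94e-04) and on probe 29592 by 0.82 ± 0.20 (adjusted p = 0.0452). Scp2 was the 1 gene of the 9 with such an interaction, by 3 of the 16 probes. Of all probes 0.63% were called, and of 13004 genes tested 102. Probe 63300 gave -0.68 with an adjusted p of 0.131, which passed without control male replicate 2 (0.0941), 5 mg/kg male replicate 2 (0.0434) or 0.1 mg/kg male replicate 4 (0.0902). It also passed with DESeq2 (-0.59, adjusted p = 0.0244) and with the probes of the gene summed (-1.003, adjusted p = 0.00464). The interaction of probe 29592 was lost without female replicate 3 or 4 at 5 mg/kg/day (adjusted p = 0.119 and 0.115) and with no filter on low counts (adjusted p = 0.142). Without the male mice under 5000000 counts, the interactions of probes 78173, 72800 and 29592 still passed, at -1.44, -1.52 and -0.86. That fit leaves out 2 of the 4 male mice at 5 mg/kg/day and 1 of the 5 at 0.5 mg/kg/day. Between 0.5 and 5 mg/kg/day, Scp2 probes 78173 and 72800 fell in male mice by 0.62 and 0.59 (adjusted p = 0.0347 and 0.0617) with no overlap, and probe 29592 fell by 0.43 (adjusted p = 0.0623). Without male replicate 3 at 5 mg/kg/day none of these 3 falls passed (adjusted p = 0.162, 0.167 and 0.139). In the same fit without the male mice under 5000000 counts, probe 78173 stood at -0.39 (adjusted p = 0.361) and probe 72800 at -0.61 (adjusted p = 0.215). Probe 72800 also lost the call without male replicate 3 at 0.5 mg/kg/day (-0.51, adjusted p = 0.127), and probe 29592 without that mouse, male replicate 4 at 0.5 mg/kg/day or male replicate 4 at 5 mg/kg/day (adjusted p = 0.126, 0.112 and 0.101).

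**Figure D3:**
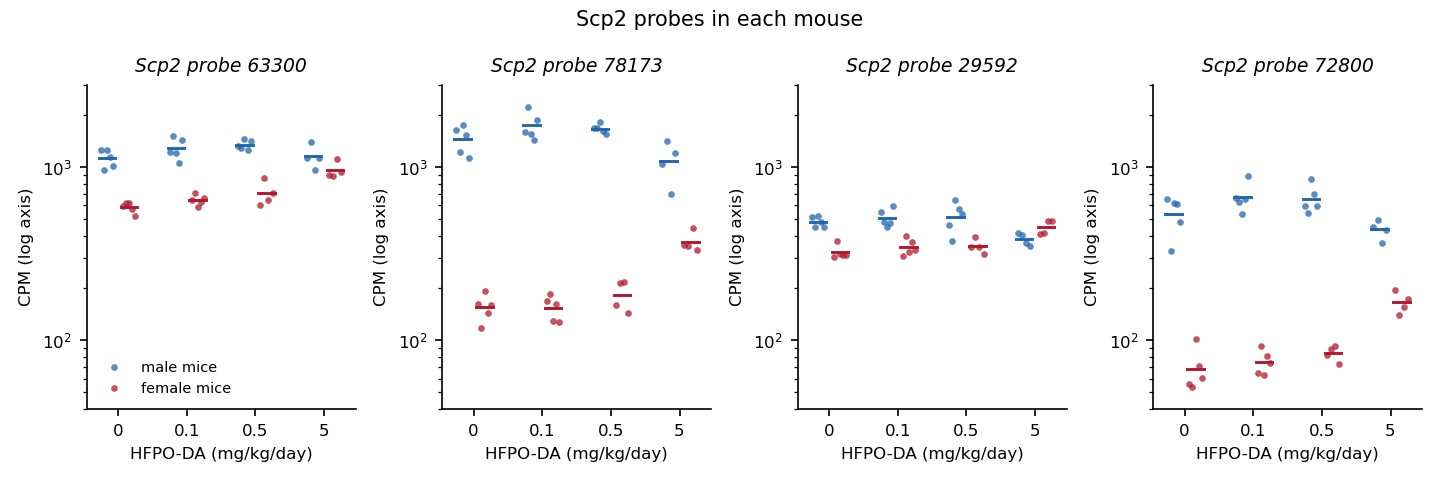
CPM of the 4 Scp2 probes (y, log axis) by dose of HFPO-DA (x, mg/kg/day). Each point is 1 mouse, blue for male and red for female, and bars are group means. On probes 78173 and 72800 the sexes are far apart in control mice and closer at 5 mg/kg/day, where probe 78173 reads 697 to 1411 CPM in male and 332 to 444 CPM in female mice.

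Eci2 and Decr2 are auxiliary enzymes that handle double bonds, Eci2 as an enoyl-CoA isomerase and Decr2 as the peroxisomal 2,4-dienoyl-CoA reductase. Eci2 stood at 196, 157, 91.6, 162 and 140 CPM in control male mice and at 272, 226, 287, 301 and 255 CPM at 0.5 mg/kg/day. At 5 mg/kg/day it stood at 318, 352, 347 and 343 CPM, so that all 3 groups lay apart. In female mice it stood at 153, 110, 89.3, 93.9 and 127 CPM in controls, at 209, 223, 179 and 180 CPM at 0.5 mg/kg/day and at 330, 292, 429 and 337 CPM at 5 mg/kg/day, again apart. The log2 fold change at 5 mg/kg/day was 1.19 ± 0.17 in male mice (adjusted p = 2.15e-06) and 1.60 ± 0.17 in female mice (adjusted p = 4.82e-09). At 0.5 mg/kg/day it was 0.84 (adjusted p = 0.00297) and 0.79 (adjusted p = 0.0304). The female call at 0.5 mg/kg/day was lost without control replicate 2, 3 or 4 (adjusted p = 0.113, 0.159 and 0.205) and without replicate 1 or 2 of that dose (adjusted p = 0.167 and 0.287). Decr2 read 68.4 to 130 CPM in control male mice and 132 to 169 CPM at 5 mg/kg/day, a log2 fold change of 0.54 (adjusted p = 0.0976). In female mice it read 102 to 161 CPM in controls and 178 to 264 CPM at 5 mg/kg/day, a log2 fold change of 0.67 (adjusted p = 0.0588). Both calls on Decr2 were close to the threshold of 0.10. The male one was lost in 33 and the female one in 5 of the 37 fits that left out 1 mouse, with adjusted p up to 0.261 and 0.201.

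Both auxiliary enzymes have a mitochondrial counterpart of the same activity, Decr1 and Eci1, and each counterpart rose by more. Decr1 rose at 5 mg/kg/day by 1.68 (log2) in male and 1.39 in female mice, and Eci1 by 2.15 and 1.92. The log2 ratio of Decr2 to Decr1 was lower than in controls by 1.14 in male and by 0.72 in female mice, with no overlap (exact permutation p = 0.0159 and adjusted p = 0.0318 for both). The ratio of Eci2 to Eci1 was lower by 0.92 in male mice (exact permutation p = 0.0159, adjusted p = 0.0318). In female mice it was lower by 0.32 and the groups overlapped (exact permutation p = 0.143, adjusted p = 0.202), a difference that passed without control female replicate 3 (-0.44, adjusted p = 0.0507).

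Pecr, the trans-2-enoyl-CoA reductase of the peroxisome, adds hydrogen to a double bond and is not itself a step of the degrading cycle. Probe 68952 stood at 37.8, 32.8, 50.03, 53.7 and 40.9 CPM in control male mice and at 56.2, 50.9, 39.8, 42.4 and 45.0 CPM at 0.5 mg/kg/day. At 5 mg/kg/day the male mice stood at 20.5, 18.8, 0.375 and 7.57 CPM, all below every control. The lowest of these was the mouse with 2101495 counts, in which the probe had 1 count. Probe 31484 had 0 counts in the same mouse, which allows up to 1.12 CPM, and 7.26 to 14.4 CPM in the other 3 against 18.5 to 35.8 CPM in controls. The log2 fold change was -1.82 ± 0.38 (adjusted p = 0.00104) on probe 68952 and -1.74 ± 0.38 (adjusted p = 0.00174) on probe 31484. Without the 4 male mice under 5000000 counts both were -1.74 (adjusted p = 3.92e-04 and 5.17e-04). That fit leaves out 2 of the 4 male mice at 5 mg/kg/day. Against 0.5 mg/kg/day the falls were -1.94 and -1.95 (adjusted p = 0.00113 and 0.00112). In female mice probe 68952 read 44.7 to 63.0 CPM in controls and 25.4 to 53.5 CPM at 5 mg/kg/day, with log2 fold changes of -0.51 and -0.47 on the 2 probes (adjusted p = 0.737 and 0.791). The difference between the sexes did not pass either, at -1.31 with a 95% interval of -2.34 to -0.28 (adjusted p = 0.356) and -1.28 with one of -2.31 to -0.25 (adjusted p = 0.373).

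Over the set, 9 of the 16 probes rose and 2 fell in male mice at 5 mg/kg/day, for 7 genes raised and 1 lowered, while 4.21% of all 18570 probes rose and 8.49% fell. In female mice 12 of 16 probes rose and none fell, for 7 genes raised, while 2.26% of all probes rose. At 0.5 mg/kg/day 5 probes of 5 genes were raised in male mice, those of Ehhadh, Acaa1b, Acaa1a, Eci2 and Hsd17b4, where 0.382% of all probes rose. The first 4 of these were also the 4 raised in female mice, where 0.108% of all probes rose. From 0.5 to 5 mg/kg/day 2 probes rose and 5 fell in male mice, for 2 genes raised and 2 lowered, beside 3.16% and 5.57% of all probes. In female mice 7 probes rose from 0.5 to 5 mg/kg/day, for 6 genes raised, beside 0.635% of all probes. These steps share their 5 mg/kg/day mice with the comparisons against control. By the levels alone, 7 of the 16 probes were higher and 3 lower in male mice at 5 mg/kg/day with no overlap between the groups, beside 2.78% and 4.8% of all probes, and 13 were higher in female mice, beside 4.4%. For 0.5 mg/kg/day these counts were 5 in each sex, beside 0.652% and 1.52%. The median log2 fold change of the 16 probes at 5 mg/kg/day was 0.59 in male and 1.17 in female mice, against -0.12 and -0.01 over all probes tested. Counts on the 9 genes together made up 0.390% to 0.574% of a library in control male mice and 1.82% to 2.32% at 5 mg/kg/day. In female mice they made up 0.285% to 0.317% in controls and 1.91% to 2.50% at 5 mg/kg/day. At 0.1 mg/kg/day the share was 0.581% to 0.706% in male and 0.345% to 0.431% in female mice, and at 0.5 mg/kg/day 0.782% to 1.18% and 0.464% to 0.773%. In each sex no dose group overlapped the next in this share. In male mice, however, the highest control (0.574%) lay just under the lowest mouse at 0.1 mg/kg/day (0.581%). The share is of raw counts, without the TMM factors used for CPM, and was not tested. Those factors ran from 0.836 to 1.01 in control male mice and from 0.875 to 1.05 at 0.1 mg/kg/day. With them these male groups need not lie apart. Most of the share at 5 mg/kg/day was Ehhadh, which alone made up 1.20% to 1.53% in male and 1.31% to 1.80% in female mice. The share without Ehhadh was not computed.

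**Figure D4:**
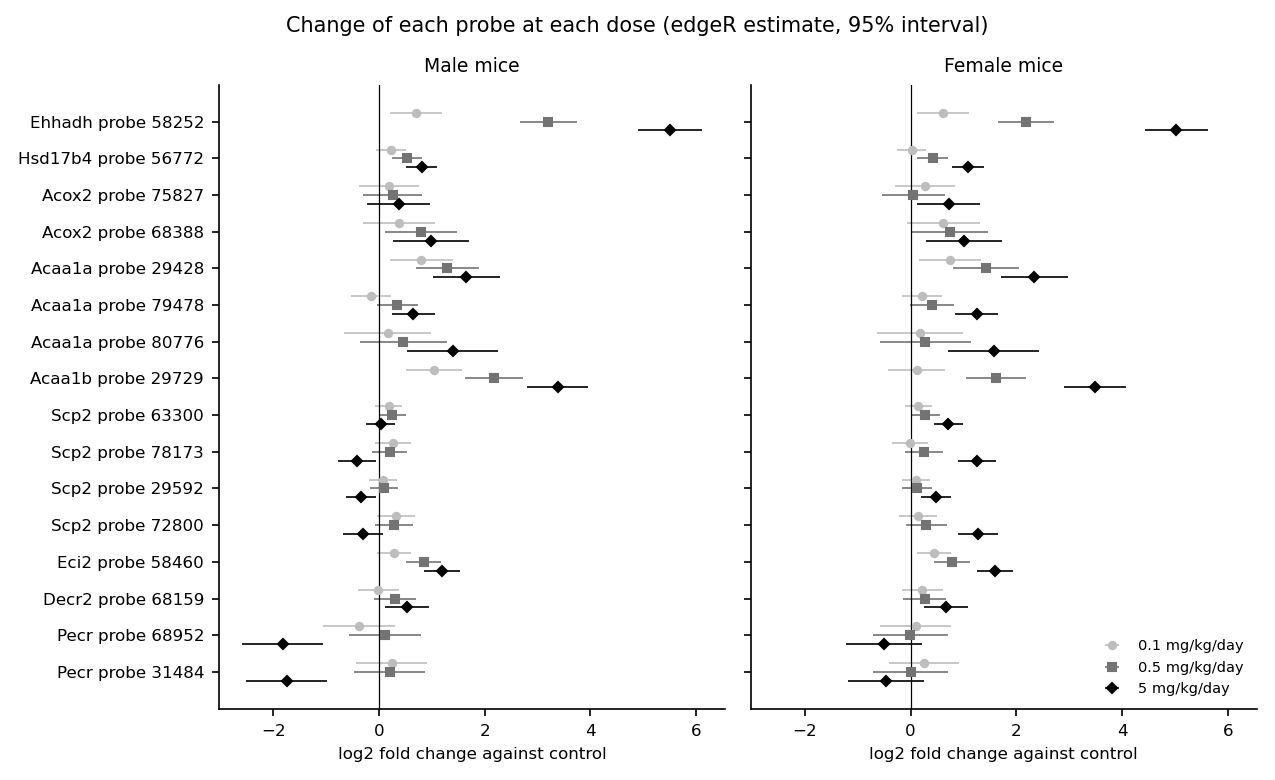
Log2 fold change against controls of the same sex (x) for each of the 16 probes (y), with 95% intervals, in male mice on the left and female mice on the right. Symbols give the dose, from circles at 0.1 to diamonds at 5 mg/kg/day. The Ehhadh diamonds stand at 5.51 and 5.03, and the Pecr diamonds of male mice at -1.82 and -1.74.

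Apart from Scp2, no gene of the set passed the test of a difference between the sexes in its response at 5 mg/kg/day. The difference, male minus female, was 0.48 for Ehhadh with a 95% interval of -0.26 to 1.22, and -0.11 for Acaa1b with an interval of -0.89 to 0.68. For the leading probe of Acaa1a it was -0.68 (-1.56 to 0.20), for Eci2 -0.41 (-0.89 to 0.07), for Hsd17b4 -0.28 (-0.70 to 0.14) and for Decr2 -0.13 (-0.72 to 0.46). These intervals leave room for differences of about the size of the smaller effects. The change at 0.5 mg/kg/day, as a percent of the log2 fold change at 5 mg/kg/day, was 58.2% in male and 43.5% in female mice for Ehhadh. It was 64.6% and 46.3% for Acaa1b, 71.2% and 49.3% for Eci2, and 78.0% and 60.8% for Acaa1a, given as a description.

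The other lists of peroxisomal and mitochondrial genes moved in part, and their counts stand beside 4.21% of all probes that rose and 8.49% that fell in male mice at 5 mg/kg/day, and 2.26% that rose and 2.26% that fell in female mice. The list counts below are of genes with any called probe, and by gene 2061 of 13004 were called in male and 682 in female mice, in either direction. Of 20 further peroxisomal acyl-CoA genes tested, 8 rose and 3 fell in male mice at 5 mg/kg/day, and 6 rose and 2 fell in female mice, with medians of 0.47 and 0.60. Acot3, a thioesterase, rose by 6.31 (log2) on probe 65814 in male mice (adjusted p = 4.44e-06), from near-zero counts in some controls. That is not the leading Acot3 probe, and no leading probe of this list rose by more than 4.48 in male mice. Crat, the carnitine acetyltransferase, rose on probe 79407 by 4.43 in male mice (adjusted p = 2.79e-05) and 2.56 in female mice (adjusted p = 0.0161). Of 22 genes of the peroxisome membrane and biogenesis, 8 rose and 1 fell in male mice and 4 rose and 1 fell in female mice, with medians of 0.48 and 0.27. Pex11a, which takes part in peroxisome division, rose by 2.17 in male mice (adjusted p = 3.81e-07) and 3.09 in female mice (adjusted p = 2.34e-10), and Abcd3, a fatty acyl transporter, by 1.55 and 1.62. Pxmp2, a channel protein, fell by 0.95 in male mice (adjusted p = 9.31e-05) and 0.60 in female mice (adjusted p = 0.0271). Of 16 peroxisomal enzymes outside fatty acid oxidation, 4 rose and 4 fell in male mice and 2 rose and 2 fell in female mice, with medians of -0.26 and 0.13. Hao2 rose by 4.52 in male mice (adjusted p = 5e-06), although the groups overlapped. Ephx2 rose by 0.75 in male mice (adjusted p = 0.00126) and by 1.54 in female mice (adjusted p = 3.39e-09). Pipox, which degrades pipecolic acid and sarcosine, fell by 1.06 in male and 0.86 in female mice. Uox, the urate oxidase, fell by 1.18 in male mice on probe 63889 (adjusted p = 0.00119), which is not its leading probe. Of 14 mitochondrial beta-oxidation genes, 10 rose in male and 11 in female mice and none fell, with medians of 0.85 and 1.13.

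Of the 4 other lists, the genes whose log2 CPM followed Ehhadh most closely over the 37 mice were mitochondrial: Decr1 with a Pearson r of 0.96, Eci1 with 0.95, Hadha with 0.94, and Hadhb and Acadm with 0.92 each. Within the set, r was 0.88 for Acaa1b and Eci2, 0.84 for Acaa1a, 0.77 for Hsd17b4, 0.57 for Decr2, 0.40 for Acox2, 0.23 for Scp2 and -0.41 for Pecr. Scp2 followed Ehhadh among the female mice (r = 0.92) and not among the male mice (r = 0.05). Among the female mice alone the closest of all was Acaa1b (r = 0.98), and Ephx2 and Pex11a (r = 0.96 each) stood beside Decr1 (r = 0.96). Within the dose groups r was lower, 0.71 for Decr1, 0.54 for Hadha and 0.40 for Eci1. The mice share dose groups, so the pooled values describe the common course over doses.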

How the data were processed

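Liver sections of 37 mice (40 were assayed, and the authors dropped 3 for low depth or few probes) were read by TempO-Seq. The authors demultiplexed reads with bcl2fastq 2.17.1.14, aligned them to the probe sequences with Bowtie (no version is given in the sources used here) and deposited raw counts per probe, with no normalization. Probe sequences were not used here.

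From these counts, CPM were computed with TMM factors, and log2 CPM with a prior count of 2. edgeR 4.0.16 in R 4.3.3 was fitted to all 37 mice with a mean for each of 8 groups (filterByExpr, min.count 10), with Benjamini-Hochberg adjustment over 18570 probes. Ratios were tested by exact permutation with scipy 1.17.1. Replicates are separate mice, and no 2 libraries of a group agreed within sampling noise (68 pairs, smallest chi-square per degree of freedom 20.4). The 95% intervals of fold changes include the spread between mice. The limit given for a count of 0 covers counting error only, since reads carry no molecular identifiers.

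All probes of the 9 genes are given. Of the other lists, up to 4 called genes with the smallest adjusted p in a sex were eligible to be named, and Crat is given on the same probe in both sexes, chosen after its values were seen. The gene set and the lists were chosen with earlier results of these data known. Protein sequences were not used here. The scripts were tested on simulated counts. Alternatives were DESeq2 1.42.0, its size factors, other filters and prior counts, a robust fit, thinned counts, summed probes, each sex fitted apart, a threshold of 0.05, and leaving out 1 mouse or, chosen after seeing the data, the 4 male mice under 5000000 counts.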

Additional observations from a re-analysis of the deposited data

Results flagged for a closer look

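Of 72 groups of leading probes checked, 5 held a mouse far from the others of its group by Dixon's test, and 3.6 would be flagged at 1 in 20. Acaa1a stood at 1027 CPM in female replicate 4 at 0.1 mg/kg/day, where the nearest mouse was at 570 CPM, and at 1969 CPM in female replicate 2 at 0.5 mg/kg/day, with the nearest at 671 CPM. Ehhadh stood at 5297 CPM in male replicate 4 at 0.5 mg/kg/day (nearest 2254 CPM) and at 17070 CPM in female replicate 3 at 5 mg/kg/day (nearest 12736 CPM). Decr2 stood at 135 CPM in female replicate 3 at 0.5 mg/kg/day, below the nearest mouse at 182 CPM.

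The effect of 5 mg/kg/day on Scp2 differed between the sexes on 3 of its 4 probes, with interactions of -0.82 on probe 29592, -1.58 on probe 72800 and -1.67 on probe 78173 (log2, male minus female).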

How the results depend on the processing

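No paired analysis was possible because the replicate numbers follow the order of the samples and tie no mouse of one group to a mouse of another. Of 130 values for the 18 main results under the alternatives, 119 stayed within 1.5 times the count of called genes or kept the call of a ratio, and 0 changed sign. Within that range the 8 called genes of male mice at 5 mg/kg/day became 6 with no filter, with each sex fitted apart or at a threshold of 0.05, where Acox2 and Decr2 were lost. They became 7 with summed probes, thinned counts or without the male mice under 5000000 counts. The 7 of female mice became 8, with Acox2, when each sex was fitted apart, with DESeq2 or without those male mice, and 6 at a threshold of 0.05. From 0.5 to 5 mg/kg/day in male mice 4 became 6 with DESeq2. DESeq2 called 1 gene of the set, Acaa1b, in male mice at 0.1 mg/kg/day. Between control mice of the 2 sexes it called 4 genes (Scp2, Hsd17b4, Eci2 and Acaa1a) among 813 probes of 28330, and 2 genes were called with DESeq2 size factors, a mean count of at least 10, thinned counts or without the male mice under 5000000 counts. The cause was not tested. Thinning brought the Eci2 to Eci1 ratio of female mice at 5 mg/kg/day to -0.36 and past the threshold (adjusted p = 0.0634). Without the male mice under 5000000 counts, only 2 mice at 5 mg/kg/day remain and no ratio can pass: Acaa1b to Acaa1a was 1.31, Ehhadh to Hsd17b4 4.64, Decr2 to Decr1 -1.22 and Eci2 to Eci1 -0.87 in male mice.

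Leaving out 1 mouse at a time gave 0 to 0 called genes at 0.1 mg/kg/day in each sex, 3 to 5 (male) and 2 to 4 (female) at 0.5 mg/kg/day, and 6 to 9 and 6 to 8 at 5 mg/kg/day. The male count at 0.5 mg/kg/day was 3 without replicate 4 of that dose, and the female count was 2 without control replicate 3 or 4 or without replicate 2 of that dose. From 0.5 to 5 mg/kg/day it gave 3 to 4 and 4 to 6, for the interaction 1 to 1, and between control mice 1 to 3. The Eci2 to Eci1 ratio at 5 mg/kg/day ranged from -1.02 to -0.84 in male and from -0.44 to -0.19 in female mice.

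Of 766 values for 81 single-probe results, 726 kept direction and call, 28 lost the call, 9 gained it and 3 changed sign, none of the last in a called result. The Scp2 probe 63300 change in male mice at 5 mg/kg/day was -0.21 with the probes of the gene summed, and ranged from -0.10 to 0.11 with 1 mouse left out. The Acaa1b interaction at 5 mg/kg/day was 0.017 with DESeq2 size factors and 0.015 with DESeq2, and ranged from -0.27 to 0.17 with 1 mouse left out. Size factors of DESeq2 moved the median of all probes in male mice at 5 mg/kg/day from -0.12 to -0.03 and the share of higher among called probes from 33.1% to 42.0%. The 4 shallow male libraries limit values of a few CPM, such as those of Pecr.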
